A study of Mus musculus with 6 samples.

Results

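Actin and contractile cytoskeleton genes, 5 in number, were followed in 2 cell types of the mouse embryo, stem cells (mES) and fibroblasts (mEF). They are Actb and Actg1, which encode the cytoplasmic beta- and gamma-actins, Acta2, which encodes smooth muscle alpha-actin, Tagln, which encodes the actin-binding protein transgelin, and Vim, which encodes the intermediate filament protein vimentin. The genes were chosen by name, with earlier results of these data known. An alignment record was counted for a gene when its 5′ end lay on the gene's strand in a fixed window. The windows are of the mouse genome build mm9, extended by 1000 nt on each side. The 5 windows held 12921 of 750739 records in mES (1.72%) and 16898 of 459005 records in mEF (3.68%), while the records of both cell types joined into 29069 loci in all.

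Actin monomers polymerise into filaments that give a cell its shape and, with myosin, its contractile force. The cytoplasmic actins are made in nearly every cell, whereas smooth muscle actin and transgelin are best known from smooth muscle, myofibroblasts and cultured fibroblasts. Vimentin forms filaments of a different kind in mesenchymal cells such as fibroblasts. Transcription of several actin and contractile genes is driven by serum response factor, which binds a motif named the CArG box.

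The cells were measured by Hi-SCL, in which a cell is lysed in a drop, its mRNA is labelled with a barcode on the poly(A) tail, and cDNA of the pooled drops is amplified and sequenced. The mES cells were of the line V6.5 and were grown with leukemia inhibitory factor (LIF), which keeps them undifferentiated, and the mEF cells were a purchased line (Globalstem) of 10.5 p.c., whose medium is listed without LIF. All 6 libraries are labelled with both cell types, and the authors deposited the alignments as 1 pool, or aggregate, per cell type. The files do not say if barcodes were given to a cell type by the cells that were loaded or by clustering their transcripts, and in the second case these genes could have taken part in the assignment. Each cell type is therefore 1 pool of a single line without labelled replicates, so that no test between cell types was possible and each interval below covers counting error only. PCR copies are not independent molecules, and without molecular identifiers they were counted as records.

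The read names show 3 sequencing runs, numbered by their records, and no label ties a run to a library. Runs 1 and 2 were combined here because they share most of their positions. They held 641929 mES and 429324 mEF records, and run 3 held 108810 mES and 29681 mEF records. Of those in run 3, 24108 in mES and 2529 in mEF were second copies, the same read listed again at the same place. Runs 1 and 2 had 0 second copies. Run 3 stood apart, as the mitochondrial chromosome and the chromosome 17 locus with the most records took 40.9% of its mES and 33.5% of its mEF records, against 3.15% and 3.36% in runs 1 and 2. A count of 3 records, the limit that a count of 0 allows, was 4.00 CPM, or counts per 1000000 records, in mES and 6.54 CPM in mEF.

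Promoter sequences were taken from the RefSeq annotation of GRCm38.p6, since the members differ in the letters before their start sites, and 3 of the 5 genes were matched. The 250 bases before the start are given 5′ to 3′ on the strand of the gene, for Actg1 at chr11:120348496-120348745 on the minus strand, for Acta2 at chr19:34255374-34255623 on the minus strand and for Vim at chr2:13574061-13574310 on the plus strand. Capitals mark an exact match to a CArG box (CC, then 6 bases that are each A or T, then GG), a TATAAA or a CCAAT, searched on both strands.
Actg1: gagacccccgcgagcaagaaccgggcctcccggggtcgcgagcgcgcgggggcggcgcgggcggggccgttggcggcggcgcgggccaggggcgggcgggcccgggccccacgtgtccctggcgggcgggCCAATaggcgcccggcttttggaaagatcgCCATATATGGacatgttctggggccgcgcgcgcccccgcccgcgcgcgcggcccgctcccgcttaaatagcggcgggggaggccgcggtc
Acta2: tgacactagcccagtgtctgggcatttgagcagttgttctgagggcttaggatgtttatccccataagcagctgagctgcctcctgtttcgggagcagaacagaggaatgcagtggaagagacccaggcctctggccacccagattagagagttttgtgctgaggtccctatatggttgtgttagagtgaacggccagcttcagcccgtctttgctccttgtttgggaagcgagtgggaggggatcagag
Vim: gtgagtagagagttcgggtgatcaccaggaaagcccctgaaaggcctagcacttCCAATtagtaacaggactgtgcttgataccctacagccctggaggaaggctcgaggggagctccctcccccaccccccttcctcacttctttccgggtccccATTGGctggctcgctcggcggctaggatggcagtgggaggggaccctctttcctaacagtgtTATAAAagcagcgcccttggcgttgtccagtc

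The Actg1 promoter held a CArG box whose first base lies 90 bases before the start and a CCAAT 120 bases before it. In the Vim promoter, a TATAAA began 32 bases before the start, and CCAAT letters began 196 and 94 bases before it, the second of these on the opposite strand. None of the 3 motifs had an exact match in the Acta2 window. Near matches were not searched, so a site that departs from the exact letters would have been missed. Of 32851 mouse promoters of the same length, 1.47% held a CArG box, 12.4% a TATAAA and 33.8% a CCAAT. The motifs do not overlap in these windows, and a match is a description of the letters, not a site of binding.

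All 5 genes had a higher level, in CPM, in mEF than in mES. The 2 cytoplasmic actins showed the smallest ratios, and smooth muscle actin, transgelin and vimentin were each over 4-fold higher in mEF. Among the 4321 loci whose records in mES and mEF came to 50 or more, 24.6% were over 4-fold higher in mEF, and the 3 of 5 genes past this size are to be read against that share. None of the 5 was over 4-fold higher in mES, where 30.2% of the loci were. As each aggregate is a pool, fewer cells that express a gene and less RNA of it per cell cannot be told apart.

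Actb was measured at 14071 CPM in mES (95% exact Poisson interval 13804 to 14342), from 10564 records. In mEF it was at 22296 CPM (21866 to 22732), from 10234 records. The level of this cytoplasmic actin was thus 1.58-fold higher in mEF (95% exact interval of the ratio 1.54 to 1.63), the smallest ratio of the 5 genes. Actg1, the other cytoplasmic actin, was at 1537 CPM in mES (1450 to 1628) and at 4915 CPM in mEF (4714 to 5122). Its ratio of 3.20 (2.98 to 3.44) lay outside the interval of Actb, and both stayed under 4-fold.

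Acta2 rested on 709 records in mES and 2833 in mEF, or 944 CPM (876 to 1017) and 6172 CPM (5947 to 6404). The ratio of this smooth muscle actin, 6.54 (6.02 to 7.11), was the largest of the 5. Tagln had 256 CPM in mES (221 to 295) and 1290 CPM in mEF (1188 to 1398), a ratio of 5.04 (4.28 to 5.97). Acta2 and Tagln both mark contractile cells. Vim had 402 CPM in mES (358 to 450) and 2142 CPM in mEF (2010 to 2280). The vimentin ratio of 5.32 (4.67 to 6.08) lay between those of Tagln and Acta2, and the differences among the ratios of the genes were not tested.

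**Figure D1:**
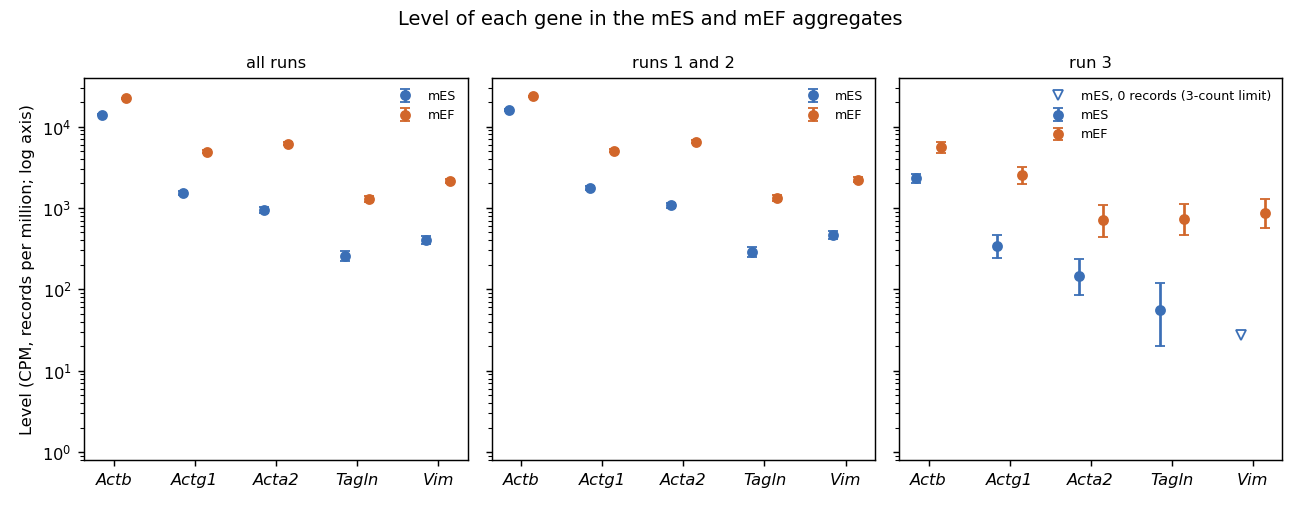
Level of each gene in CPM on a log axis, in mES (blue) and mEF (orange), for all runs, for runs 1 and 2 and for run 3. Bars are 95% exact Poisson intervals, which cover counting error only, and the open triangle is the 3-count limit for Vim, which had 0 records in mES in run 3. Each gene lies higher in mEF in every panel.

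The log2 ratios of the 5 genes had a median of 2.33, against -0.10 over the 4321 loci. Because the genes are deeper than most loci, the comparison was repeated over the 276 loci with 500 records or more, a minimum chosen after seeing the data. Of these, 10.9% were over 4-fold higher in mEF and 6.52% over 4-fold higher in mES, and their median log2 ratio was 0.08. Among them, 86 loci had a ratio above that of Actb and 36 a ratio above that of Actg1. The number was 12 for Acta2, 20 for Vim and 21 for Tagln. The genes therefore spread from the 68.8 percentile (Actb) to the 95.7 percentile (Acta2) of these loci, and none stood outside their range.

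**Figure D2:**
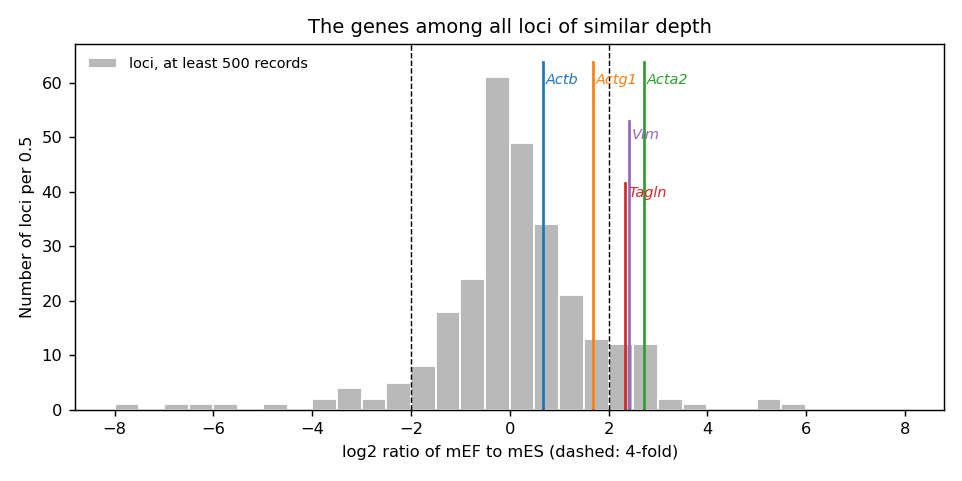
Histogram of the log2 ratio of mEF to mES over all loci with 500 records or more, in steps of 0.5, with the 5 genes as vertical lines of different height for legibility. Dashed lines mark 4-fold in each direction, and Acta2, Vim and Tagln lie past the right one.

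The direction was the same in each sequencing run, and in runs 1 and 2 together the same 3 genes were over 4-fold higher in mEF, as 23.6% of 4180 loci were, while 30.9% were over 4-fold higher in mES. In runs 1 and 2, taken singly, Actb was 1.46-fold higher in mEF in both, Actg1 was 2.85- and 3.10-fold higher and Acta2 was 5.90- and 6.46-fold higher. Tagln was 4.58-fold higher in both runs, and Vim was 4.64- and 4.95-fold higher. These runs are no independent samples, as between 87.1% and 100% of the positions of each gene in run 2 were also in run 1.

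Run 3 was far shallower, with 116 loci of 50 records or more, of which 16.4% were over 4-fold higher in mEF and 19% in mES. All of the genes but Actb, 4 of 5, passed 4-fold in it. There Actb had 253 mES and 165 mEF records and was 2.39-fold higher in mEF (1.95 to 2.92), above its ratio of 1.46 in runs 1 and 2. Actg1 rested on 37 and 75 records and was 7.43-fold higher (4.95 to 11.3), so that it passed 4-fold in run 3, though it was at 2.92-fold in runs 1 and 2. The 16 and 21 records of Acta2 gave a ratio of 4.81 (2.39 to 9.86), an interval that includes its 6.07-fold of runs 1 and 2. Tagln, with 6 mES and 22 mEF records, was 13.4-fold higher (5.29 to 40.5), against 4.58-fold in runs 1 and 2. Of these 6 mES records, 3 were second copies, which the interval counts like other records. The ratios of run 3 were not computed without second copies. Vim had 0 mES and 26 mEF records and was 31.8-fold higher in mEF with 3 counts in place of 0 in mES. With the count of 0 kept, the exact interval of its ratio began at 24.0 and had no upper end. In runs 1 and 2 it was 4.74-fold higher. Acta2 was the only gene of the 5 with a lower ratio in run 3 than in runs 1 and 2.

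The levels themselves also differed between runs 1 and 2 and run 3. In mES, runs 1 and 2 lay above run 3 by 6.91-fold for Actb, 5.12-fold for Actg1, 7.34-fold for Acta2 and 5.25-fold for Tagln. Vim had 0 records in run 3 and, set to 3 counts there, gave 17.1-fold. In mEF the same ratios were 4.22 for Actb, 2.01 for Actg1, 9.26 for Acta2, 1.79 for Tagln and 2.54 for Vim. The mitochondrial chromosome and the chromosome 17 locus were then left out of the totals. The range was 3.12 to 4.48 in mES for the genes with records in run 3, and 1.23 to 6.37 in mEF. Vim in mES, with 3 counts in place of 0 in run 3, was at 10.4. Scaled to all records, every gene in mES, and Actb and Acta2 in mEF, thus differed more between the runs than between the cell types. With the smaller totals, Acta2 (4.48) and Tagln (3.21) in mES lay below their ratios between the cell types, 6.31 and 4.87. The part of the runs in the ratios was not tested.

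**Figure D3:**
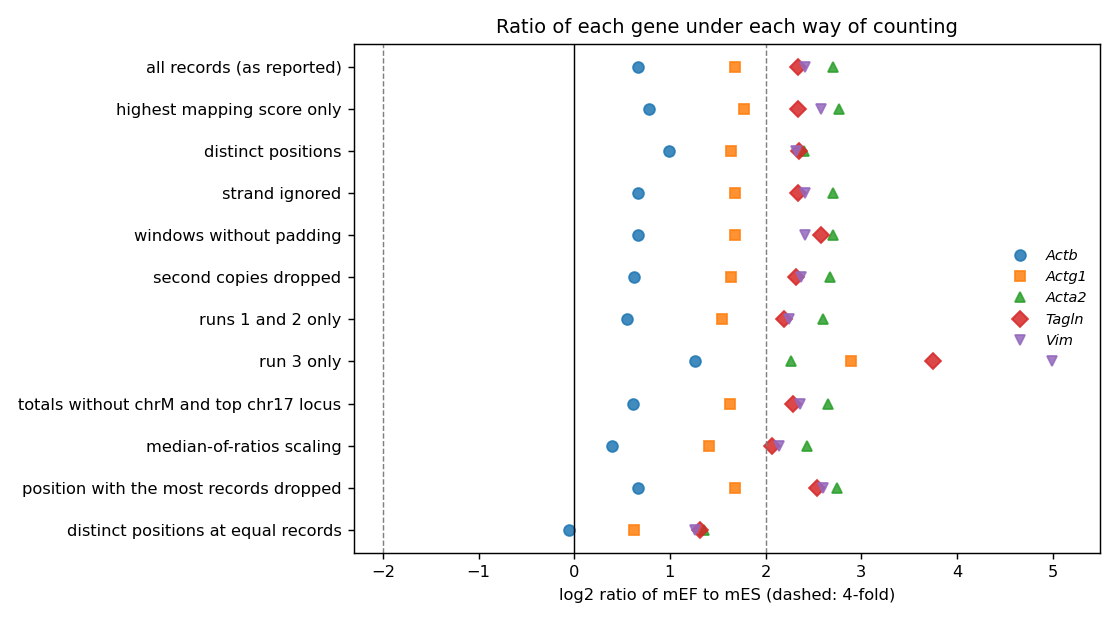
Log2 ratio of mEF to mES of each gene under the reported way of counting and 11 others. Dashed lines mark 4-fold, and the value of Vim in run 3 is a lower limit computed from 3 counts in mES. With distinct positions at equal records, every gene lies lower, as does the median of all loci, at -1.03.

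Each gene was covered by few distinct 5′ ends, which limits how far records stand for molecules. Actb had 251 positions in mES and 234 in mEF, with 42.1 and 43.7 records at each on average. Acta2 had 36 and 89 positions with 19.7 and 31.8 records each, and Actg1 had 59 and 86 with 19.6 and 26.2. Tagln and Vim were the sparsest genes in mES, with 18 positions each, and had 43 and 42 positions in mEF. Counted as distinct positions and scaled to all positions, the log2 ratio was 0.99 for Actb and 2.40 for Acta2, and Acta2, Tagln and Vim were still over 4-fold higher in mEF. Over 1119 loci with 10 positions or more, 8.94% were over 4-fold higher in mEF and 7.6% in mES. When the mES aggregate was instead thinned to as many records as the mEF aggregate, the ratio of the mEF positions to the mES positions then expected was 0.964 for Actb, 1.55 for Actg1, 2.56 for Acta2, 2.49 for Tagln and 2.40 for Vim, with none of the 5 past 4-fold. This setting, which is not scaled to all positions, moved the loci as a whole, as the median log2 ratio of the 1119 loci went from -0.04 to -1.03, with 3.49% over 4-fold higher in mEF and 20.7% in mES. The 5 genes had log2 ratios from -0.053 to 1.36 in it, all above that median.

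Most records of each gene began within 1000 nt of the 3′ bound of the window, and the rest lay farther from it. The median distance of the 5′ ends from the 3′ bound of the window was 318 nt in mES and 320 nt in mEF for Actb, and 213 and 186 nt for Actg1. It was 610 and 581 nt for Acta2, 379.5 and 400 nt for Tagln and 764 and 763 nt for Vim. The medians were alike in both cell types, but the spread around them was not alike for Actb. The upper quartile of Actb was 348 nt in mES and 455 nt in mEF. For Actg1, with run 3 left out, the shares of records within 250 nt of the bound were alike. They were 63.7% of 1117 records in mES and 67.8% of 2181 in mEF. In run 3 they were apart, at 10.8% of the 37 mES and 76% of the 75 mEF records. That mES share rests on few records, of which 16 lay at 1 position. At least 96.5% of the records of the cytoplasmic actins lay within 1000 nt of the bound. The share was 84.1% and 87.1% for Acta2, 76.0% and 86.3% for Tagln and 78.8% and 75.7% for Vim. These distances are along the genome and include introns. Acta2 records in mES at 2302 and 2306 nt, for example, lay 796 and 800 nt from the bound with the last intron taken out.

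Several of the more distant records piled up at single positions. Acta2 had 94 mEF records at a position 14244 nt from the 3′ bound, near the 5′ end of its window. In Tagln, the position with the most records in both cell types lay 6180 nt from the bound, with 44 records in mES (22.9%) and 66 in mEF (11.1%). This position is in the 1000-nt extension, past the window of 5901 nt, while the annotated Tagln gene is 6440 nt long in GENCODE M21. Without the extension of the windows, Tagln was 5.97-fold higher in mEF in place of 5.04-fold.

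**Figure D4:**
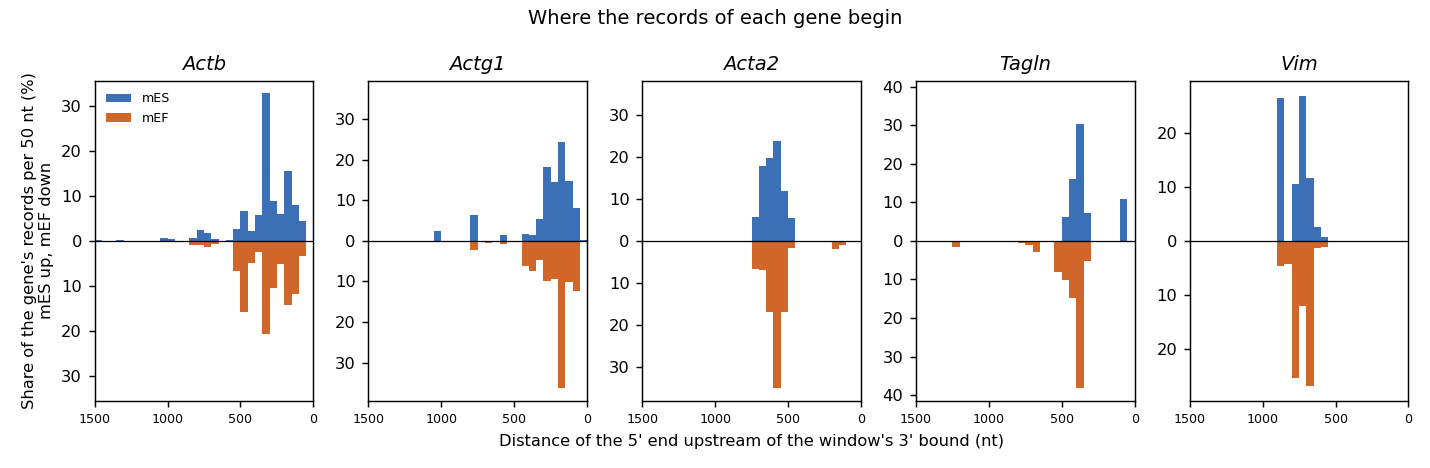
Share of the records of each gene per 50 nt against the distance of their 5′ end from the 3′ bound of the window, with mES upward and mEF downward. Most records of each gene begin within 1000 nt of the bound in both cell types, and records past the left edge are not drawn.

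Records that span an intron were used to check the windows against the gene annotation. Over the 5 windows, 209 records had a gap, with 9 different lengths, and all 9 equalled the length of an intron annotated in the same gene in GENCODE M21. In Actb, 29 mES records spanned 125 nt, the length of intron 5 of 5. In Acta2, 42 mES and 30 mEF records spanned 1506 nt, as the last of its 8 introns does, and 10 mEF records spanned the 974 nt of intron 6. Vim had 8 mES and 37 mEF records over the 401 nt of intron 6 and, in mEF, records over introns 4, 7 and 8. Tagln had 5 such records, of which 2 in mES spanned the 4060 nt of its first intron, and Actg1 had none.

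The actins are a family of closely similar genes with many pseudogenes, so a read can have several placements, which the aligner shows by a mapping score below its highest value. For Actb, the share of records at the highest score was 62.9% in mES (95% exact binomial interval 62.01 to 63.86) and 68.1% in mEF (67.2 to 69.0). It was 91.2% and 97.3% for Actg1, 96.2% and 100% for Acta2, and 89.1% and 100% for Vim, while each Tagln record had it. Over the 5 genes together it was 68.4% in mES and 80.3% in mEF, where Actb gave 10564 of 12921 and 10234 of 16898 records. With the highest score alone, scaled to all such records, the ratios were 1.72 for Actb, 3.42 for Actg1, 6.80 for Acta2, 5.05 for Tagln and 5.98 for Vim. Each ratio was as large as or larger than with all records, and the same 3 genes were past 4-fold, beside 25.8% of 3455 loci in mEF and 29.5% in mES.

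**Figure D5:**
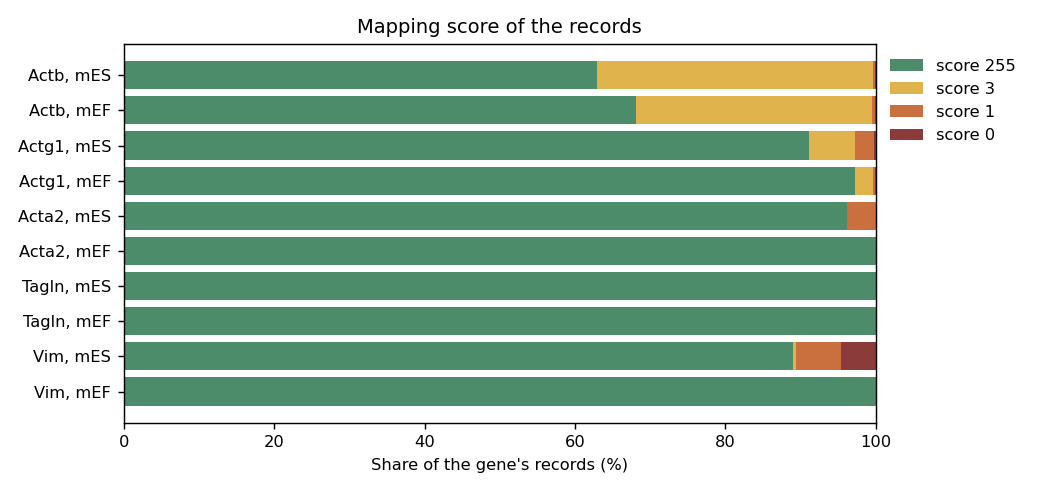
Share of the records of each gene at each mapping score, as stacked bars for mES and mEF. Actb has the largest share below the highest score, and every Tagln record has the highest.

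The reads of Actb below the highest score had nearly all the same second place. They numbered 3905 in mES and 3264 in mEF, and 3810 (97.6%) and 3183 (97.5%) of them were also listed on the plus strand of chromosome 16, from 37883190 to 37884297 in mm9. That locus held 3821 mES and 3192 mEF records, of which 1 and 0 had the highest score. In GENCODE M21 (GRCm38), chromosome 16 carries on its plus strand Lrrc58, a protein-coding gene, with the transcribed processed pseudogene Gm15725 inside it. Of the 1886 stretches of 35 nt in the Actb transcript of 1920 nt, 359 (19.0%) were found letter for letter in a transcript of Lrrc58 and 235 in that of Gm15725. These 2 genes were looked up after the records were seen, and the locus was not joined to them by coordinates because the builds differ.

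Placement followed the position in the Actb transcript. Among records 200 to 400 nt from the 3′ bound, 52.9% in mES and 54.0% in mEF were below the highest score, against 11.5% and 9.59% nearer the bound. Between 400 and 600 nt the shares were 23.7% and 25.1%. Along the gene, the shares of mES and mEF were thus within 2 percentage points of each other up to 600 nt. Past 1000 nt they were apart, at 67.7% of 96 records in mES and 14.5% of 76 in mEF, which are few of the records of Actb.

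Reads shared between the actins themselves were few. In mES, 100 reads were listed in both the Actb and the Actg1 window, and in mEF 53 were. In mES, 27 reads were listed in all 3 actin windows, and in mEF 0 were. The 3 genes share a run of 47 nt in their coding sequence, at bases 1013 to 1059 of the Actb transcript, which is shown because it is the stretch where these reads can lie.
Actb, Actg1 and Acta2 shared run: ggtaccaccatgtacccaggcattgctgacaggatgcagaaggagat

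The 27 reads began at 2 positions, 20 at the first and 7 at the second. With the last intron taken out, these lay 902 and 906 nt from the 3′ bound of Actb, while the shared run begins 908 nt from the end of the transcript. In Acta2 they lay 796 and 800 nt from the bound and were its only records below the highest score, 3.81% of its mES records. The coding sequence of Actg1 was more widely copied, with 1018 of 1793 stretches of 35 nt (56.8%) in the processed pseudogene Gm12715, but these stretches lie at least 734 nt from the transcript end, while the upper quartile of the Actg1 distances was 265 nt in mES and 277 nt in mEF.

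Tagln and Vim shared almost no stretches of 35 nt with other genes. None of the 1561 stretches of 35 nt in the Tagln transcript of 1595 nt was found in another gene. Of the 2159 in the Vim transcript of 2193 nt, 5 were also in a transcript of Krt75, a keratin gene on the minus strand of chromosome 15 that was looked up after the values were seen. The 33 mES reads of Vim below the highest score began at 2 positions, 3174 and 3177 nt from the 3′ bound, and all 33 were also listed on the minus strand of chromosome 15. Without them, Vim differed more between the cell types, as its ratio at the highest score shows.

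The cell types shared a smaller part of their exact 5′ ends in the less abundant genes than in Actb. For Actb, 144 positions were found in both cell types, 57.4% of those in mES and 61.5% of those in mEF. Actg1 shared 18 (30.5% and 20.9%), Acta2 13 (36.1% and 14.6%) and Tagln 6 (33.3% and 14.0%). Vim shared none of its 18 mES and 42 mEF positions, though its median distances, given above, were 764 and 763 nt. Over all positions of the aggregates, 4051 were shared, or 7.51% of those in mES and 16.04% of those in mEF. Sharing was also counted within a cell type, between runs 1 and 2 and the shallower run 3. In mES, run 3 held 12.3% of the Actb positions of runs 1 and 2, 1.92% for Actg1, 6.06% for Acta2 and 6.25% for Tagln. These shares are limited by the few positions of run 3. Of its 45 Actb positions in mES, 64.4% were also in runs 1 and 2. The share was 12.5% of 8 for Actg1, 40% of 5 for Acta2 and 33.3% of 3 for Tagln. The part of the cell type in the sharing was not tested.

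The locus outside the 5 windows whose levels over the 4 profiles (both cell types, each in runs 1 and 2 and in run 3) were most like those of each gene was found by the Euclidean distance of centred log2(CPM + 1) among 739 loci. For Actb it lay on chromosome 12 from 70259651 to 70260336 on the minus strand, at a distance of 0.264. The nearest locus to Actg1 was on chromosome X from 71468844 to 71469174 (0.397), and that to Acta2 was on chromosome 5 from 93603475 to 93603934 (0.463). Tagln was nearest to chromosome 17 from 87832825 to 87833257 (0.463) and Vim to chromosome 7 from 106493982 to 106494552 (0.484). Like the vimentin gene, the last of these had 0 CPM in mES in run 3. The 4 values share their totals, and the likeness is a description.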

How the data were processed

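The authors aligned the reads with TopHat (version not stated) to mm9, per the labels, and deposited 1 list of alignments per cell type with position, strand, read name and a mapping score. The deposited mapping score takes 4 values, and no count table or barcode per read was used here. Records in the windows were counted, scaled to CPM by all records of the aggregate, and compared as ratios. Loci were 5′ ends at most 500 nt apart on a strand. Intervals were exact Poisson for CPM, exact conditional binomial for ratios and exact binomial for shares. The genes and lists were chosen with earlier results of these data known. The 5 genes are named in full, and the nearest locus to each by profile needed at least 200 records and 5 positions. The annotation used here is of GRCm38, so cell type markers and other cytoskeleton genes were not analysed here, and only gene lengths, transcripts and promoters were taken from it. The deposited barcode list was not used here. The alternatives were other mapping scores, distinct positions, strands, windows, copies, runs, totals and scalings, and loci of other depths. On simulated counts over 4321 loci for the mEF to mES comparison, 200 of 200 loci changed by 16-fold were called, with 0 false calls. The simulation drew Poisson counts without PCR copies, and its changes lay far past the 4-fold limit. It therefore checks the counting and does not show how often calls in these data are false. Python 3.11.15, numpy 2.4.6, pandas 2.3.3, scipy 1.17.1 and matplotlib 3.10.9 were used.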

Additional observations from a re-analysis of the deposited data

Results flagged for a closer look

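On the strand opposite Actb, 8 mES records with the highest mapping score lay in the window, above the limit of 3 that a count of 0 allows, and the comparisons do not use them. Of these, 5 began 138 nt from the 3′ bound and 2 began 402 nt from it, all in run 3, and 1 lay at 536 nt in run 1. In mEF there was 1 such record, and the other 4 windows had 0 in either cell type.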

How the results depend on the processing

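Across 11 other ways of counting, 54 of 55 log2 ratios of mEF to mES kept their direction. In distinct positions at equal records, chosen after seeing the data and not scaled to all positions, the median of the 1119 loci was -1.03 (-0.04 when scaled). There Actb was at -0.053, Actg1 at 0.63, Acta2 at 1.36, Tagln at 1.31 and Vim at 1.26, and 0 genes passed 4-fold, as 3.49% of the loci did. Actb crossed 0 in this setting, in which the median of the loci also fell. In run 3, Actb was at 1.26, Actg1 at 2.89, Acta2 at 2.27, Tagln at 3.75 and Vim at 4.99, and 4 genes passed 4-fold. With runs 1 and 2, Actb was at 0.55 and Actg1 at 1.55. Under median-of-ratios scaling every ratio fell by 0.27 on the log2 scale, to 0.39 for Actb, 1.41 for Actg1, 2.44 for Acta2, 2.06 for Tagln and 2.14 for Vim. Actb was at 0.78 with the highest score, 0.99 in distinct positions and 0.61 with totals without the mitochondrial chromosome and the chromosome 17 locus, and Acta2 was at 2.40 in distinct positions. The share of loci over 4-fold fell with depth, to 14.8% in mEF and 11.3% in mES at 200 records and to 10.9% and 6.52% at 500, the last chosen after seeing the data. Strand, dropping second copies or dropping the position with the most records (added after seeing the data) moved no ratio by more than its interval. The causes were not tested. No paired analysis was possible because each cell type is 1 pool. The number of distinct positions, as few as 18 per gene in mES, limits the precision more than the intervals show.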
